A study of Homo sapiens with 12 samples.

Results

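Cytosolic ribosomal protein genes encode the proteins of the small (40S) and large (60S) subunits of the ribosome. They were chosen by gene symbol (RPL or RPS and a number, with the stalk genes RPLP0, RPLP1 and RPLP2 and with RPSA), without pseudogenes or the S6 kinases, and each was read on 1 probe set that lists no other gene. By this rule 59 of the 19775 genes on the array were ribosomal protein genes, 21 of the 40S and 38 of the 60S subunit, on 19 chromosomes. The current RefSeq annotation holds 84 symbols of this form, and 15 of them, among them RPLP0, RPSA, RPL5, RPL10 and RPL26, appeared here only on probe sets that also list another gene. Of the 59 genes, 57 passed the filter on low values; RPL36A and RPL3L read at most 5.09 and 3.74 on any array and were not tested.

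The samples were Jurkat cells, an established human T-cell leukaemia line, transduced with a construct encoding miR-21 or with the matching control vector. The 3 fractions were Total RNA, RNA recovered with an antibody to AGO2 (AGO2 IP; AGO2 is the Argonaute protein that carries microRNAs and the messenger RNAs they pair with) and RNA recovered with control IgG (IgG IP). Each of the 6 groups had 2 replicates, which gave 12 arrays; every group shared the parent line, and the labels give no treatment and do not say whether the replicates were separate transductions or cultures, so p-values measure only the spread between these samples. Per the labels, 1 ug of RNA was labelled for Total RNA and 100 ng for both IPs, so that the labelled amount and the step from Total RNA to an IP cannot be told apart.

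Ribosomal proteins are made in matched amounts, and their messenger RNAs are among the most abundant of a growing cell. Most start with a cytidine followed by a run of pyrimidines, the 5' terminal oligopyrimidine (TOP) motif, through which LARP1 and the mTOR pathway set how strongly they are translated. Several carry roles beyond the ribosome or in disease: RPL11 binds MDM2 when ribosome assembly fails, RPS19 is the gene most often mutated in Diamond-Blackfan anaemia, RPS14 lies in the region lost in 5q- syndrome, and RPL22 is recurrently deleted in T-cell leukaemia.

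The starts of the genes are shown because the TOP motif is the feature that these genes are best known to share. RefSeq promoter windows of build GRCh38.p14, 250 bases before to 50 after the annotated start, were matched by symbol for 51 of the 59 genes; RPL23A, RPL37, RPL30, RPL3L, RPL7, RPL8, RPS15A and RPL39L had no entry. Each line gives 30 bases on the gene's strand, and the capitals mark the pyrimidine run that begins at the annotated first base of the transcript. The first 5 genes were lower in AGO2 IP than in Total RNA. On their chosen probe sets, RPS24, RPL14 and RPL24 were among the highest there. RPLP1 is shown for its replicate 2 values, described further on. RPL22L1 and RPS27L are paralogs.
RPL12, chr9:127451392-127451421, minus strand: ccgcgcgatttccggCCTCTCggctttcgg
RPL39, chrX:119791616-119791645, minus strand: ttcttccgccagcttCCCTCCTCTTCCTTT
RPL29, chr3:51995881-51995910, minus strand: caccgcagcccctttCTCTTCCggttctag
RPS21, chr20:62387088-62387117, plus strand: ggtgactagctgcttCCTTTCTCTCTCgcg
RPS19, chr19:41860240-41860269, plus strand: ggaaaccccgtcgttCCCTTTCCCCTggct
RPS24, chr10:78033848-78033877, plus strand: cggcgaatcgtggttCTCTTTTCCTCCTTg
RPL14, chr3:40457324-40457353, plus strand: gggcgggtcttcttcCTTCTCgcctaacgc
RPL24, chr3:101686704-101686733, minus strand: ttcccatgattctctCTTTCTTTTCgccat
RPLP1, chr15:69452803-69452832, plus strand: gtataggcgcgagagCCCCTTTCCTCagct
RPL22L1, chr3:170870181-170870210, minus strand: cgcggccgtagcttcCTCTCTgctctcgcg
RPS27L, chr15:63157463-63157492, minus strand: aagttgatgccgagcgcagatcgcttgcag

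A start on C followed only by pyrimidines, with a run of at least 5 bases on the transcript's strand, was found in 35 of the 51 matched genes (68.6%), against 4.07% of all 35116 promoter windows of this length and 5.14% of genes with at least 1 such window. The core CCGGAAG of the ETS family, searched on both strands, was found in 19 of them (37.3%, against 10.3% of all windows and 12.2% of genes); at some genes it overlaps the pyrimidine run. The TATA box letters TATAAA, on both strands, were found in 5 (9.80%, against 11.5% and 14.0%). The median GC content was 58.7% in these genes and in all windows. RPS27L and RPS4X were among several genes with no pyrimidine run at the annotated start.

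The deposited values are on the log2 scale of the RMA method, where a step of 1 is a doubling of signal. In Total RNA, the means of the 57 tested genes ran from 5.46 to 14.4 with a median of 13.7, and 50 of them were at or above 12. Levels of different probe sets cannot be ranked as amounts of RNA, and the highest value on an array was 14.4 to 14.8, so many of these genes were read close to the top of the scale; what that does to the differences was not tested. The 2 constructs read nearly alike in Total RNA: none of the 57 tested genes differed between them by more than 0.37 in replicate 1 or 0.27 in replicate 2, and RPL36A, read below the filter, differed by -0.45 in replicate 2. Replicate 2 read higher, by a median of 0.48 over these genes and 1.00 over all 12824 genes tested.

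Several arrays stood apart before any comparison. Within replicate 2, both IPs of a construct gave nearly the same values: over the 57 genes the difference between them had a standard deviation (SD) of 0.085 with the control vector and 0.157 with miR-21, against 0.393 and 0.348 in replicate 1. The replicate 2 IP arrays differed by construct instead, as shown for RPLP1 further on, so the comparisons they enter are given by replicate and also without 2 of them, the AGO2 IP array with the control vector and the IgG IP array with miR-21. The values are arranged as they would be if the labels of those 2 arrays had been exchanged; the labels were kept, and this was not tested. If they had been, the AGO2 IP against IgG IP values and the construct values of replicate 2 in both IPs would be different comparisons from those their names give. The control vector AGO2 IP array of replicate 1 had the largest 3' over 5' signal of the array's ACTB probes, a log2 difference of 4.001 against 1.35 to 3.53 on the other arrays. For GAPDH the same measure was higher in every IP array than in both Total RNA arrays of its replicate, 0.35 to 1.95 against 0.14 to 0.22 in replicate 1 and 1.02 to 1.60 against 0.58 to 0.71 in replicate 2. The GAPDH measure thus moved with the step from Total RNA to an IP, and so did that of ACTB in replicate 1. In replicate 2 the ACTB measure did not: it was 3.53 and 3.18 in Total RNA, 2.57 and 3.48 in IgG IP, and 2.58 and 2.08 in AGO2 IP. The part of RNA integrity in the differences was not tested. A list of 12 T-cell markers, all of them tested, averaged 8.02 to 8.99 on every array. Lists of B-cell, myeloid, erythroid and epithelial markers averaged 2.98 to 5.20, with 2 of 5, 1 of 4, 1 of 2 and 2 of 5 genes above the filter. In bulk RNA, fewer cells with a transcript and less of it per cell cannot be told apart.

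The comparison of AGO2 IP with Total RNA asks which transcripts are relatively rich or poor in AGO2-bound RNA. Of the 57 ribosomal protein genes, 19 were lower in AGO2 IP and none was higher in the limma model that took the replicate as a block, at an adjusted p (Benjamini-Hochberg) under 0.05. Among all genes, 11.3% were called lower and 4.71% higher, so the share among the ribosomal protein genes was above the background in the lower direction. Their median log2 difference was -0.46, against -0.05 over all genes, and 47 of the 57 were below 0. The model without the block, which was the main one, called none of the 12824 genes; there 19 of the ribosomal protein genes were lower and 1 was higher at an unadjusted p under 0.05 (all genes, 6.82% lower and 2.77% higher; 1230 genes). No test was run on the list as a whole.

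The direction repeated in matched arrays. AGO2 IP was below Total RNA of the same construct and replicate in 4 of 4 pairs for 40 of the 57 genes, where 23.8% of all genes did so. All 4 AGO2 IP arrays were below all 4 Total RNA arrays for 28 of them, where 7.93% of all genes did so and the shift between replicates was larger than in these genes. Of the 19 called genes, 17 were separated in this way, and RPL39L and RPL22L1 overlapped across replicates but not within either. The calls were made on these same arrays. Both subunits were represented: 8 of 21 genes of the 40S subunit were called lower (median -0.59) and 11 of 36 of the 60S subunit (median -0.45).

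The gene with the lowest adjusted p was RPL12, which encodes uL11, a protein at the base of the stalk where elongation factors bind. In Total RNA it read 12.59 (control vector) and 12.57 (miR-21) in replicate 1 and 13.72 and 13.71 in replicate 2. In AGO2 IP it read 11.31 and 11.22, then 11.64 and 11.85. In IgG IP it read 11.69 and 11.93, then 11.82 and 11.62. All 8 IP arrays were below all 4 Total RNA arrays, and the IgG IP arrays of replicate 1 lay between Total RNA and AGO2 IP. The log2 difference of AGO2 IP from Total RNA was -1.64 ± 0.27 (SE), adjusted p = 0.0128 in limma with the block, with -1.32 in replicate 1 and -1.97 in replicate 2.

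RPL39 encodes a very small protein of the exit tunnel. It read 13.72 and 13.77 in Total RNA of replicate 1 and 13.91 and 13.96 in replicate 2, and in AGO2 IP 12.68 and 12.78, then 12.12 and 11.94. IgG IP gave 13.23 and 13.27, then 12.12 and 12.04. Replicate 1 thus had 3 steps, with IgG IP in the middle, and replicate 2 had only 2, with both IPs at one level. The difference of AGO2 IP from Total RNA was -1.46 ± 0.28 (SE), adjusted p = 0.0172.

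RPL32, a 60S protein of the solvent side, had the same shape. Its Total RNA values were 13.71 and 13.71, then 14.12 and 14.05, and its AGO2 IP values were 12.98 and 12.73, then 12.14 and 12.09. IgG IP read 13.28 and 13.29 in replicate 1 and 12.24 and 12.01 in replicate 2. No IP array reached a Total RNA array, and the drop was larger in replicate 2 (-1.97) than in replicate 1 (-0.86); the difference over both was -1.41 ± 0.31 (SE), adjusted p = 0.0225.

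RPL29, RPL8 and RPL36 are further 60S proteins. RPL29 read 12.99 to 13.66 in Total RNA and 11.59 to 12.12 in AGO2 IP. RPL8, which forms part of the floor around the peptidyl transferase centre, read 12.90 to 13.41 and 11.68 to 12.10. RPL36 read 12.32 to 13.30 and 11.27 to 11.83. In all 3 genes the ranges were apart, with log2 differences of -1.41 ± 0.28, -1.31 ± 0.26 and -1.27 ± 0.28 (SE). The other called genes of the 60S subunit were RPL18 (-1.03), RPL23A (-0.98), which sits at the tunnel exit, and RPL27 (-0.85), besides the paralogs RPL39L and RPL22L1.

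In the 40S subunit the lowest value belonged to RPS9, a protein of the decoding side that helps to hold the body of the subunit. It read 12.46 and 12.53 in Total RNA of replicate 1, 13.56 and 13.32 in replicate 2, and in AGO2 IP 11.16 and 11.54, then 12.08 and 11.82. The difference was -1.32 ± 0.27 (SE), adjusted p = 0.0201, and here replicate 1 (-1.15) and replicate 2 (-1.49) were close to each other.

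RPS19, which is needed for the last steps of 40S maturation, read 14.02 and 14.01, then 14.27 and 14.25 in Total RNA. In AGO2 IP it read 12.87 and 13.26, then 12.88 and 12.95, and in IgG IP 13.36 and 13.59, then 12.98 and 12.96. All 8 IP arrays were below all 4 Total RNA arrays. The difference of AGO2 IP was -1.15 ± 0.21 (SE), adjusted p = 0.0161. RPS21, a small protein also used late in 40S assembly, had -1.19 ± 0.22 (SE), with AGO2 IP at 12.40 to 13.07 and Total RNA at 13.48 to 14.26.

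The remaining called genes of the 40S subunit were RPS15 (-1.14), a protein of the head near the decoding site, RPS12 (-0.88), RPS18 (-0.80), RPS10 (-0.80) and RPS15A (-0.74). RPS15A was the called gene nearest the threshold (adjusted p = 0.0371). RPL10L (-1.12, adjusted p = 0.0560), RPL35 (-0.91, 0.0718) and RPS29 (-0.83, 0.0750) lay just outside it. RPS6, the best known target of the S6 kinases, stood at -0.17 ± 0.18 (SE), and RPL11 at -0.06 ± 0.18 (SE). RPL11 read 13.15 to 13.60 in Total RNA and 13.05 to 13.59 in AGO2 IP, so its ranges overlapped almost wholly. Among further genes that were not called, RPS4X stood at -0.59, RPL37 at -0.47, RPL3 at -0.41, RPL35A at -0.29, RPL37A at -0.04, RPL7 at 0.05 and RPS27 at 0.12.

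**Figure D1:**
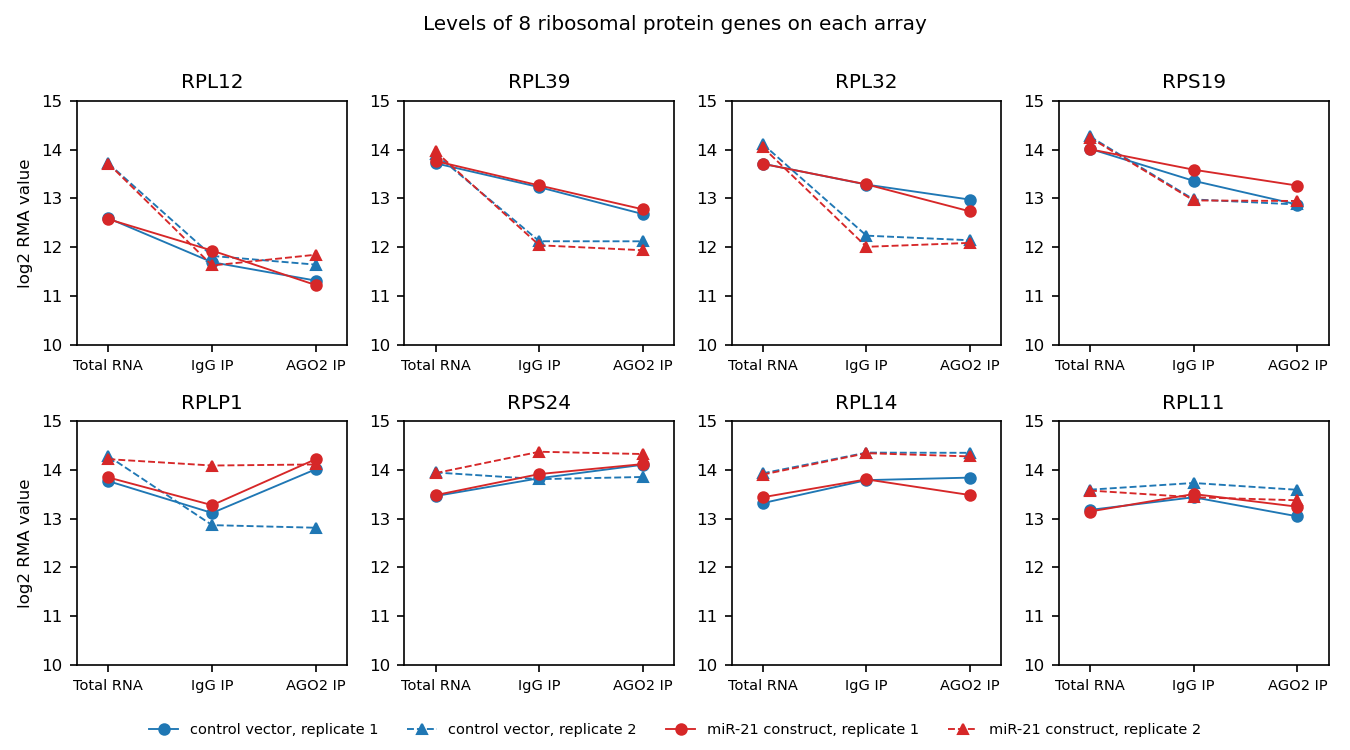
Log2 RMA values (vertical axis) of 8 ribosomal protein genes in Total RNA, IgG IP and AGO2 IP (horizontal axis), with one point per array; colour gives the construct, and circles with solid lines and triangles with dashed lines give replicates 1 and 2. RPL12, RPL39, RPL32 and RPS19 were below Total RNA in all 8 IP arrays, RPLP1 differed by construct in the replicate 2 IPs (12.87 and 12.81 against 14.09 and 14.11), and RPL11 stayed between 13.05 and 13.73.

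A minority of the genes read higher in AGO2 IP than in Total RNA, and none of them passed the threshold with the block. RPS24, whose mutations also cause Diamond-Blackfan anaemia, read 13.47 and 13.48, then 13.95 and 13.94 in Total RNA, and 14.11 and 14.12, then 13.86 and 14.33 in AGO2 IP. It was higher in 3 of 4 matched pairs, with a difference of 0.40 ± 0.20 (SE), adjusted p = 0.205. The other RPS24 probe set, with a mean of 6.68, went the other way. It stood at -2.02 in AGO2 IP minus Total RNA and -1.27 in IgG IP minus Total RNA. RPL14 had 0.34 ± 0.17 (SE) and was the 1 gene above Total RNA in 4 of 4 pairs. RPL24 (0.31 ± 0.20, SE), which reaches across to the 40S subunit in a bridge, differed by 0.58 in replicate 1 and 0.05 in replicate 2.

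The largest positive value belonged to RPL27A, which encodes a 60S protein and read 6.52 to 9.72 over the 12 arrays. It read 6.75 and 6.52 in Total RNA of replicate 1, 9.72 and 8.07 in AGO2 IP, and 8.85 and 8.61 in IgG IP. In replicate 2 the same fractions read 8.21 and 8.22, 8.72 and 7.81, and 8.51 and 8.21. The difference of AGO2 IP was 1.15 ± 0.44 (SE), adjusted p = 0.106, and it came from replicate 1 (2.26) with almost nothing in replicate 2 (0.05). In replicate 1 the control vector AGO2 IP array, the one with the high ACTB 3' over 5' signal, was the highest; its part in the value was not tested.

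By replicate, the picture was the same in direction and different in size. In replicate 1 alone, 21 of the 57 genes were called lower and 4 higher (all genes, 23.3% lower and 13.0% higher), with a median of -0.32. The 4 were RPL27A, RPLP2, RPS24 and RPL24. In replicate 2 alone, 28 were called lower and none higher (all genes, 19.4% lower and 15.8% higher), with a median of -0.62. These fits hold 6 arrays and 2 residual degrees of freedom each. Of the 19 genes called over both replicates, 18 were also called in replicate 1 alone and 19 in replicate 2 alone. The 19 were called from these same arrays, so the overlap is not independent support. Across the 57 genes the values of the replicates had a Pearson r of 0.64; the values share no array, and genes are not independent replicates.

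**Figure D2:**
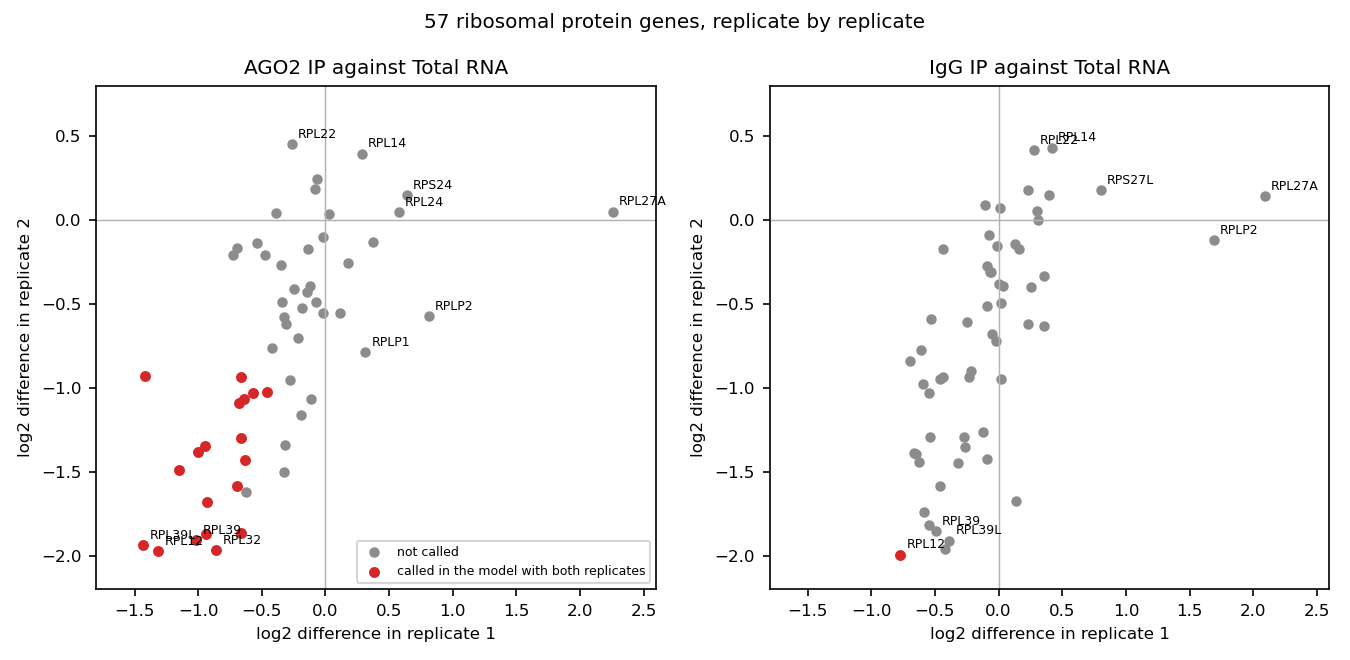
Each point is 1 of 57 ribosomal protein genes, with its log2 difference from Total RNA in replicate 1 (horizontal) and replicate 2 (vertical); red points were called in the limma model with the replicate block. In AGO2 IP (left) 19 genes were called and all lie below 0 in both replicates; in IgG IP (right) RPL12 was called, and most values are near 0 in replicate 1 and spread down to -1.99 in replicate 2.

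With those 2 doubted IP arrays of replicate 2 left out, 16 of the 19 genes were still called lower, and 1 ribosomal protein gene, RPL27A, was called higher (all genes, 13.3% lower and 8.58% higher). All 19 calls were lost when any of 4 arrays was left out. These were miR-21 AGO2 IP of either replicate and Total RNA of replicate 2 with either construct. Most calls over all genes were lost as well without miR-21 AGO2 IP of replicate 1 or without either of those Total RNA arrays. For these arrays the loss was thus not particular to the ribosomal protein genes. The count over all genes without miR-21 AGO2 IP of replicate 2 is not given here. The other 8 arrays could each be left out with 15 or more of the 19 still called, and none of the 19 changed sign in any of these fits.

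The comparison of IgG IP with Total RNA measures what is recovered without an antibody to AGO2. One ribosomal protein gene, RPL12, was called lower in the model with the block (-1.38 ± 0.27, SE, adjusted p = 0.0385) and none higher, where 1.62% of all genes were lower and 0.296% higher. The model without the block called none of all genes; 13 of the 57 were lower at an unadjusted p under 0.05 (all genes, 3.04%). The call on RPL12 was kept in 2 of the 12 fits that leave out 1 array, those without a control vector AGO2 IP array, and 9 of the 57 genes were called lower in each of those fits (all genes, 3.50%). The call on RPL12 was also lost without the 2 doubted arrays of replicate 2. In that fit no gene of the list was called (all genes, 0.351% lower and 0.0468% higher).

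The IgG IP values were smaller than those of AGO2 IP in replicate 1 and nearly equal to them in replicate 2. The median over the 57 genes was -0.37 (all genes, -0.01). In replicate 1 alone it was -0.09, with none called lower and 2 higher, RPL27A and RPLP2 (all genes, 2.99% lower and 0.772% higher). In replicate 2 alone it was -0.63, with 27 called lower and none higher (all genes, 16.6% lower and 14.7% higher). IgG IP was below its matched Total RNA in 4 of 4 pairs for 33 of the 57 genes (all genes, 19.3%), and all 4 of its arrays were below all 4 Total RNA arrays for 22 (all genes, 4.83%). Both IPs were compared with the same Total RNA arrays, so the values of AGO2 IP and IgG IP are not independent.

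**Figure D3:**
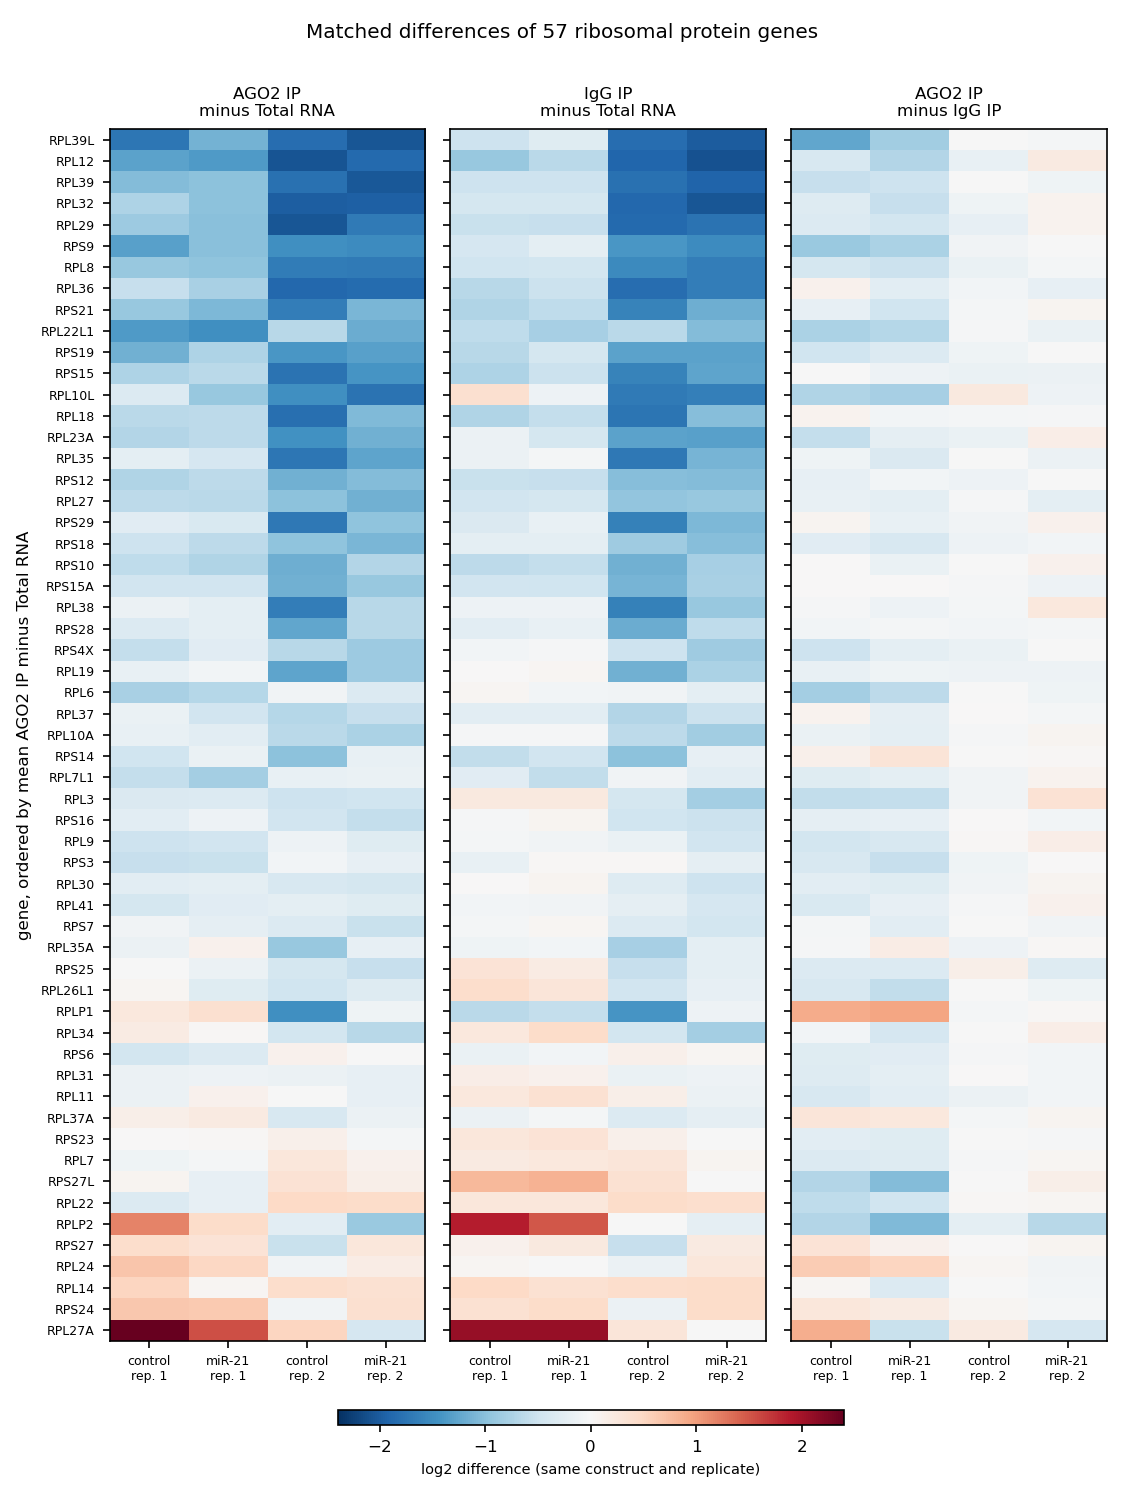
Matched log2 differences of the 57 tested ribosomal protein genes (rows, ordered by their mean in AGO2 IP minus Total RNA) for each construct and replicate (columns); blue is lower and red higher in the fraction named first. In AGO2 IP minus Total RNA 40 rows are below 0 in all 4 columns, and the AGO2 IP minus IgG IP columns of replicate 2 are close to 0 (SD 0.085 and 0.157).

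The comparison of AGO2 IP with IgG IP is the one that sets the antibody against its own background. No ribosomal protein gene was called in limma with or without the block, and none passed an unadjusted p under 0.05 in either model; 0 of all 12824 genes were called, and 663 passed that unadjusted level with the block. The median over the 57 genes was -0.15 (all genes, -0.08), and it turned to 0.04 after cyclic loess normalization (all genes, -0.03), so its direction is not settled. Without the 2 doubted arrays, limma with the block called 1.47% of all genes lower and 5.95% higher, but again none of the 57. In that fit 5 of them were lower and 1 was higher at an unadjusted p under 0.05 (all genes, 12.3% lower and 12.6% higher), and their median was -0.24. AGO2 IP was below IgG IP in 4 of 4 matched pairs for 21 of the 57 genes, where 13.1% of all genes were.

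Of the fits described here, only that of replicate 1 alone called ribosomal protein genes in this comparison. There 8 genes were lower and 1 was higher (all genes, 11.5% lower and 12.5% higher), with a median of -0.28, whereas none was called in replicate 2, with a median of -0.03; the difference between the replicates was not tested. The 8 lower genes were RPL39L (-1.04), RPLP2 (-0.88), RPS27L (-0.87), RPS9 (-0.83), RPL10L (-0.76), RPL22L1 (-0.72), RPL6 (-0.72) and RPL3 (-0.57). RPL6, a 60S protein, read 13.29 and 13.25 in IgG IP of replicate 1 and 12.48 and 12.63 in AGO2 IP, but 13.52 and 13.33 against 13.51 and 13.23 in replicate 2. The 1 higher gene was RPLP1.

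RPLP1 encodes an acidic stalk protein that recruits and activates elongation factors together with RPLP0 and RPLP2. In replicate 1 it read 13.77 and 13.85 in Total RNA, 13.12 and 13.28 in IgG IP, and 14.02 and 14.22 in AGO2 IP. In replicate 2 it read 14.28 and 14.22 in Total RNA, 12.87 (control vector) and 14.09 (miR-21) in IgG IP, and 12.81 and 14.11 in AGO2 IP. AGO2 IP was thus above IgG IP by 0.92 in replicate 1, with both constructs alike (limma, replicate 1 alone, adjusted p = 0.0126). In replicate 2 the fractions did not differ (-0.02) and the constructs did, by 1.22 in IgG IP and 1.30 in AGO2 IP, while Total RNA differed by -0.06.

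The same arrangement ran through the list. Over the 57 genes, AGO2 IP minus IgG IP in replicate 1 had a Pearson r of 0.74 with miR-21 minus control vector in IgG IP of replicate 2, and of 0.63 with the same difference in AGO2 IP, but of 0.14 in Total RNA. These values share no array; they do share probe sets, and they are given as a description. The values of AGO2 IP minus IgG IP in the 2 replicates had an r of 0.12. RPS27, a 40S protein with a zinc finger, is another example: its replicate 2 IP arrays read 13.53 and 13.54 with the control vector and 14.25 and 14.32 with miR-21. Its replicate 1 arrays read 13.88 and 13.97 in IgG IP and 14.20 and 14.07 in AGO2 IP. This is the arrangement that an exchange of the 2 doubted labels would give, and it was not tested further.

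**Figure D4:**
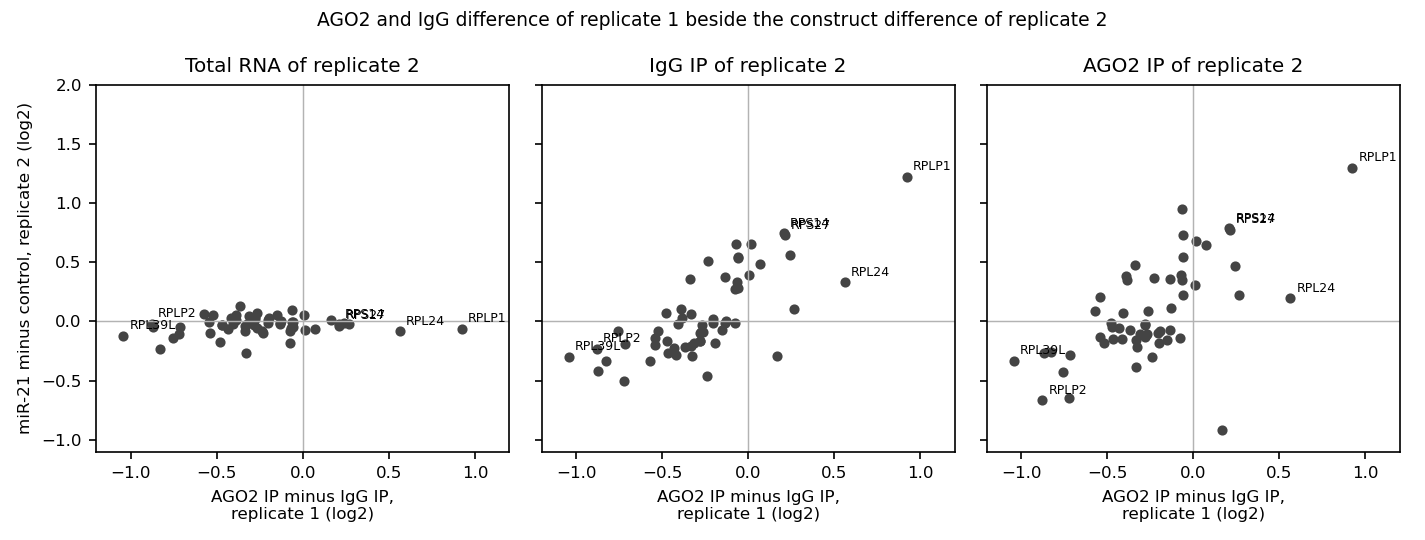
For 57 ribosomal protein genes, AGO2 IP minus IgG IP in replicate 1 (horizontal, log2) is set beside miR-21 minus control vector in replicate 2 (vertical, log2) for Total RNA, IgG IP and AGO2 IP. The points run upward in both IP panels (r = 0.74 and 0.63), with RPLP1 at the top right, and lie flat in Total RNA (r = 0.14).

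The study's own question concerned the miR-21 construct. In Total RNA the median difference of miR-21 from control vector over the 57 genes was 0.00 and the values ran from -0.12 to 0.13. In AGO2 IP the median was 0.02 (range -1.28 to 0.75) and in IgG IP 0.01 (range -0.36 to 0.69). limma called no ribosomal protein gene in any fraction, with or without the block, and none passed an unadjusted p under 0.05; among all genes 0 were called, and with the block 3 (Total RNA), 353 (AGO2 IP) and 123 (IgG IP) passed that level. The interaction of the construct with AGO2 IP against IgG IP likewise called none of the list, none passed an unadjusted p under 0.05, and its median was -0.02. Without the 2 doubted arrays no gene of the list was called either, and the medians were -0.02 in AGO2 IP and 0.24 in IgG IP. With 2 arrays per group, these results do not show that the levels were equal.

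The widest construct values were all in the IPs. RPLP1 differed by 0.75 ± 0.44 (SE) in AGO2 IP and 0.69 ± 0.44 (SE) in IgG IP, and RPS14, a 40S protein of the platform, by 0.56 ± 0.27 and 0.45 ± 0.27 (SE). RPS14 read 13.22 and 13.55 in AGO2 IP of replicate 1 and 13.17 and 13.96 in replicate 2, and between 13.70 and 14.15 in Total RNA, so the control vector was lower in both replicates of the IP. RPL27A had the lowest value in AGO2 IP, -1.28 ± 0.62 (SE), followed by RPLP2 at -0.75 ± 0.50 (SE), which was lower with miR-21 in both replicates (-0.83 and -0.66). The lowest adjusted p among these was 0.9997 in limma with the block.

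Some ribosomal proteins have a paralog that is used in particular tissues or conditions, and the pairs could be set side by side as differences between fractions. RPL22 and RPL22L1 regulate each other's expression and stood furthest apart. RPL22 read 12.94 and 12.94, then 13.43 and 13.33 in Total RNA, and 12.61 and 12.75, then 13.90 and 13.77 in AGO2 IP. RPL22L1 read 11.29 and 11.66, then 12.68 and 12.57, and in AGO2 IP 9.93 and 10.19, then 12.02 and 11.37. RPL22L1 was lower in all 4 matched pairs, and RPL22 was lower in replicate 1 and higher in replicate 2.

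The AGO2 IP minus Total RNA value of RPL22L1 was below that of RPL22 in all 4 matched pairs, with differences of -1.03 and -1.28 in replicate 1 and -1.13 and -1.63 in replicate 2, a mean of -1.27 ± 0.26 (SD, n = 4). In IgG IP minus Total RNA the same difference was -1.11 ± 0.23 (SD, n = 4), so it was present with either antibody. No test was run on it, since these 2 genes were among pairs picked with results in view. RPL22 itself was at 0.09 ± 0.21 (SE) in AGO2 IP against Total RNA and RPL22L1 at -1.17 ± 0.24 (SE), adjusted p = 0.0199. The further RPL22 probe sets stood at 0.08, 0.08, 0.73 and 1.43, so the size of the gap depends on the probe set.

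The other pairs were closer. RPL39L, the paralog of RPL39 best known from testis and from cancer cells, had the lowest value of all 57 genes in AGO2 IP against Total RNA, -1.69 ± 0.35 (SE), adjusted p = 0.0201. It read 7.80 and 8.06, then 10.20 and 10.08 in Total RNA, and 6.06 and 6.94, then 8.36 and 8.03 in AGO2 IP. It was lower within each replicate, and its 2 replicates lay about as far apart as its fractions. Its difference from RPL39 was -0.22 ± 0.32 (SD, n = 4), within the spread of the pairs. RPL7L1, a homologue of RPL7 that works in ribosome assembly, was below RPL7 by a mean of -0.49 ± 0.20 (SD, n = 4) and in each of the 4 pairs.

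RPS27L, a p53-inducible paralog of RPS27, had no steady difference from RPS27, -0.03 ± 0.64 (SD, n = 4). It read 10.27 and 10.39 in Total RNA of replicate 1, 11.05 and 11.23 in IgG IP and 10.34 and 10.19 in AGO2 IP. In replicate 2 the same fractions read 11.92 and 11.87, 12.28 and 11.86, and 12.27 and 12.01. IgG IP was therefore the highest fraction in replicate 1 alone. RPL3L, the muscle paralog of RPL3, read between 3.05 and 3.74 on every array, below the filter, and RPL10L and RPL26L1 had no measured partner because RPL10 and RPL26 shared their probe sets with other genes. RPL26L1 stood at -0.26 ± 0.21 (SE).

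RPLP2, the partner of RPLP1 in the stalk, could be read only at low values, 5.23 to 7.21 over the 12 arrays. In replicate 1 it read 5.32 and 5.23 in Total RNA, 7.21 and 6.72 in IgG IP, and 6.50 and 5.67 in AGO2 IP. In replicate 2 it read 6.42 and 6.40, 6.41 and 6.18, and 6.17 and 5.51. IgG IP was above Total RNA by 1.69 in replicate 1 and not in replicate 2 (-0.12), and AGO2 IP was below IgG IP in all 4 pairs (-0.67 ± 0.35, SE, adjusted p = 0.819 in limma with the block).

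The features of the promoter windows were set beside the values. Genes with a TOP-like start had a median of -0.32 in AGO2 IP against Total RNA, with 12 of 34 called lower, and those without had -0.53, with 3 of 16. The length of the pyrimidine run and the value had a Pearson r of 0.05 over 50 genes, the GC content of the window had -0.23 over the same 50, and the level in Total RNA had -0.09 over 57. RPL27, RPL32 and RPS15, all called, had no TOP-like start at the annotated position used here. For RPL27 and RPL32, and also for genes such as RPL6 and RPL26L1, that position lay inside the annotated gene and not at its outer end. The genes counted as without a TOP-like start can therefore not all be read as lacking one. RPS24, with a run of 14 bases, was among the highest on its chosen probe set. Genes with CCGGAAG in the window had a median of -0.43 and those without it -0.46.

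Ribosomal protein genes have many processed pseudogenes, and probe sets can bind more than one copy. Affymetrix marks this in its names: of the chosen probe sets, 28 end in _s_at (shared within a family of transcripts), 16 in _x_at (probes that may bind unrelated sequences) and 15 in _at alone. In AGO2 IP against Total RNA the median was -0.83 for the 13 tested _at sets (4 called lower), -0.46 for the 28 _s_at sets (10) and -0.42 for the 16 _x_at sets (5). Of 50 further probe sets that list only 1 of these genes and were above the filter, 37 had the sign of the chosen set. For the called genes, 11 of 14 such sets were below 0, with values from -1.64 to 1.28, so that single genes depend on the probe set. A further 15 ribosomal protein symbols that the rule takes in were read only on probe sets shared with another gene. The 48 of these sets above the filter had a median of -0.57, with 44 below 0.

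Related lists, also drawn up with earlier results known, were read in the same way, against the 11.3% of all genes called lower and 4.71% called higher. Of 20 other genes with TOP messenger RNAs, 6 were called lower in AGO2 IP than in Total RNA and 1 higher (median -0.47). The lower ones included EIF3K (-1.64 ± 0.37, SE), a subunit of initiation factor eIF3, FAU (-1.25 ± 0.29, SE), which encodes the 40S protein eS30 fused to a ubiquitin-like protein, and EEF1D (-1.12 ± 0.25, SE), of the elongation factor complex. RPL36AL, a ribosomal protein gene whose symbol the rule does not take in, was the 1 higher (0.77 ± 0.18, SE, adjusted p = 0.0268), and HNRNPA1, an RNA-binding protein, stood at 0.35 ± 0.30 (SE).

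Among 75 mitochondrial ribosomal protein genes, 11 were called lower and 5 higher, both near the shares of all genes (11.3% and 4.71%), with a median of -0.40. They spread more widely than the cytosolic genes, from MRPL41 (-1.58 ± 0.35, SE) and MRPS12 (-1.57 ± 0.25, SE) to MRPL20 (2.04 ± 0.44, SE) and MRPL58 (2.37 ± 0.62, SE). Of 54 ribosome biogenesis genes 6 were lower, also near the share of all genes, and none was higher (median -0.24), but the median was -0.65 in replicate 1 and 0.35 in replicate 2. GNL3L (-2.19 ± 0.40, SE) and UTP20 (-1.60 ± 0.23, SE) were lower, and GAR1 (1.50 ± 0.52, SE) and RRS1 (1.04 ± 0.43, SE) did not pass. Of 18 genes that regulate TOP messenger RNAs, LARP1 was the 1 called (-0.99 ± 0.25, SE, adjusted p = 0.0302); TIA1 stood at -0.61 ± 0.30 (SE), MYC at 0.64 ± 0.39 (SE) and EIF4EBP2 at 1.39 ± 0.43 (SE, adjusted p = 0.0585). Of 7 ribosomal protein pseudogenes tested 3 were lower, RPL32P3 (-0.87 ± 0.24, SE) among them, with RPS16P5 at -3.61 ± 0.22 (SE) and RPS10P7 at -1.43 ± 0.18 (SE). No list was tested against another.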

How the data were processed

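RNA of 12 Jurkat samples was measured on Affymetrix arrays. The authors deposited log2 values made with RMA, per the submitters' processing notes; its version and settings are not stated in the labels, nor is whether all arrays were normalized together. Probe sets (54675, of which 62 controls) were named from the platform's gene symbols: 41091 had 1 symbol, 1801 several and 11721 were not listed. Of a gene's single-symbol probe sets, the one highest on average over 12 arrays was used. The filter kept 12824 genes with a mean at or above 4.02, the median over non-control probe sets.

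limma 3.58.1 in R 4.3.3 fitted a mean for each of the 6 groups (lmFit, eBayes), with Benjamini-Hochberg adjustment over all genes tested and a threshold of 0.05. The main model had no block. The labels number the replicates; arrays with the same number deviated together from their groups (correlations of 0.468 to 0.873, median 0.601, over 15 pairs of groups), so a fit that blocks on the replicate number is given beside it, and single-gene values and SEs come from it. Fits within a replicate had terms for fraction and construct. Fraction contrasts are means over both constructs. The models were also run on simulated data with the same spread for every gene and no arrays arranged by construct. That run does not show how they perform on these arrays. Alternatives were other normalizations, no filter, the mean of all probe sets of a gene, no _x_at sets, and leaving out arrays; the number of arrays limits the precision. Figures used Python 3.11.15 and matplotlib 3.10.9.

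The ribosomal protein genes, the other lists and the rule for naming genes were chosen with earlier results of these data known. The rule named, from the model with the block, the 6 lowest and 6 highest genes per fraction contrast, the 3 lowest and 3 highest per construct contrast, every called gene, paralog pairs, stalk genes and a few genes known from disease, and from each other list the 2 lowest and 2 highest genes in AGO2 IP against Total RNA. EEF1D, RPL35, RPS29, and other genes named outside it were chosen after their values were seen.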

Additional observations from a re-analysis of the deposited data

Results flagged for a closer look

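For 10 of the 57 tested ribosomal protein genes, miR-21 minus control vector had opposite signs in an IP and in Total RNA. In these genes each of the 2 signs was the same in both replicates. The difference was not tested for any of them, and the interaction of the construct with AGO2 IP against IgG IP called none of the 57. How many of all 12824 genes had this pattern was not counted. The number of flagged genes therefore has no background beside it and is not a result about this list. The values below are the construct difference in the IP minus that in Total RNA, on the log2 scale. In AGO2 IP they were 0.48 for RPL35A, 0.34 for RPS28, 0.25 for RPS19, -0.16 for RPS7 and -0.089 for RPL10A. In IgG IP they were 0.45 for RPS27, 0.35 for RPS29, 0.34 for RPL35, 0.33 for RPS28, 0.30 for RPL35A, 0.28 for RPS15 and -0.23 for RPL7L1. In Total RNA these construct differences were between -0.12 and 0.12 in either replicate. Some were very small, such as 0.0014 for RPS7 in replicate 1 and -0.0082 for RPS15 in replicate 2. For RPL35A and RPS27 the replicate 2 IP arrays, which are arranged by construct, gave the larger value (0.49 and 0.73 in IgG IP, against 0.019 and 0.094 in replicate 1).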

How the results depend on the processing

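In AGO2 IP against Total RNA the count of called ribosomal protein genes was 0 without the block and 19 with the replicate block; with the block it was 16 after quantile normalization, 19 after median centring, 19 with no filter and 16 with the mean of all probe sets, and it ran from 0 to 21 when 1 array was left out. In IgG IP against Total RNA it was 0 without and 1 with the replicate block. With the block it was 2 after median centring, 0 after quantile normalization and 2 with no filter. The fits within a replicate have no block. In replicate 1 alone 2 genes were called, both higher (all genes, 2.99% lower and 0.772% higher). In replicate 2 alone 27 were called, all lower (all genes, 16.6% lower and 14.7% higher). The call on RPL12 was lost without the pair of replicate 2 arrays (an alternative chosen after seeing the data). The count also moved when 1 array was left out. In AGO2 IP against IgG IP the count was 9 in replicate 1 alone, most of them lower, and the median turned to 0.037 after cyclic loess. The construct medians moved with single arrays: from -0.20 to 0.23 in Total RNA, from -0.19 to 0.20 in IgG IP and from -0.18 to 0.15 for the interaction. In AGO2 IP the construct median was -0.050 in replicate 2 alone. The IgG IP median was 0.12 after cyclic loess and 0.24 without the pair of arrays, and the interaction was -0.12, -0.30 and, in replicate 2 alone, 0.047. The causes were not tested. None of the 19 genes and 1 gene called with the block changed sign in these fits; of the genes called in replicate 1 alone, RPLP1, RPL3, RPL10L and RPS27L (AGO2 IP against IgG IP) and RPLP2 (both IPs against Total RNA) had the other sign in replicate 2. The limits are 2 arrays per group, IP arrays of replicate 2 that hardly differ by antibody, labelled amounts that differ between Total RNA and the IPs, and levels near the top of the scale.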
